A study of Mus musculus with 2 samples.

Results

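The genes described here are 49 members of the TGF-beta superfamily signalling system: the TGF-beta, activin and GDF ligands, their type I to III receptors, the Smads and the extracellular antagonists and binding proteins. They were picked by gene symbol and pathway role, with no expression value in the rule, but with earlier results of these data known. All 49 were found among the 22054 genes measured. Mouse embryos of a mixed strain background were used at embryonic day 14.5, and RNA came from the mesenchyme of their lower molars, cut from frozen sections of heads by laser capture, a method that collects chosen areas of tissue under a microscope. The control was heterozygous for the Osr2 mutation (Osr2+/-) and the mutant homozygous (Osr2-/-), so by these labels the control also carried 1 mutant allele. The title of the series calls the controls wild type instead; the sample label was followed here, and the conflict bears on what every fold compares. Osr2 is a zinc finger transcription factor that limits where teeth form. RNA came from 3 pooled pairs of control and mutant samples, and 1 library was sequenced per genotype. Every difference below is therefore a difference between these 2 libraries, with no replicate check and no p-value.

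In this system a dimeric ligand brings type II and type I receptor kinases together. The type I receptor then phosphorylates Smad2 and Smad3 (TGF-betas, activins and related GDFs) or Smad1, Smad5 and Smad9 (BMPs and related GDFs), which enter the nucleus with Smad4, while Smad6 and Smad7 hold the signal back. Follistatins, noggin, gremlin and chordin bind ligands outside the cell, and latent TGF-beta binding proteins hold newly made TGF-beta in the matrix. In the developing tooth, activin and BMP signals pass between mesenchyme and epithelium and are needed for molar growth past the bud stage.

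Levels are the authors' RPKM values, which scale reads by transcript length and by the number of mapped reads, summed over the transcripts of a gene. By estimate, the control library held about 5380000 mapped reads and the mutant library about 34300000, 6.38 times as many. Both read numbers were derived from the deposited coverage and RPKM with the read size given below. Folds are plain ratios of RPKM, each with a 95% counting interval made from approximate reads. The read length was not given in the labels, and the 44.3 bases taken as 1 read were estimated from the deposited coverage, so read numbers and interval widths depend on that estimate. The interval covers counting error only, not variation between embryos. A gene was compared where it reached 1 RPKM in at least 1 library (9779 genes), and was counted as 1.5-fold apart on the ratio of RPKM + 1. Osr2 itself had 38.7 RPKM in the control library and 9.16 in the mutant, 4.23-fold lower (3.69 to 4.84). The deposited file names place each library on its own sequencing lane, and an effect of lane cannot be told apart from genotype. Sex-linked genes also differed between the pools, as given with Chrdl1 below, so for every fold an effect of embryo sex cannot be told apart from genotype. In bulk tissue, fewer cells of a type and less RNA per cell cannot be told apart either.

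Most of the signalling core had close levels in the 2 libraries. Of the 49 genes, 34 passed the level filter, 27 of them in both libraries, 3 in the control alone (Gdf1, Acvrl1 and Grem1) and 4 in the mutant alone (Bmper, Bambi, Chrdl1 and Fstl3). Bmper and Fstl3 alone exceeded the control by 1.5-fold or more, 5.88% of those compared, where 2.55% of all genes compared were that much higher. Grem1 alone was at least 1.5-fold lower, 2.94% beside 3.57% of all genes. All 3 passed the filter through 1 library, so a difference was built into their passing. Among the 27 genes at 1 RPKM or more in both libraries, none was 1.5-fold apart in either direction. The shares among all genes at that level were 1.33% higher and 2.18% lower.

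The median log2 ratio of RPKM + 1 was -0.06 over the 34 genes, with a range of -0.67 to 0.79, beside -0.05 over all genes compared. Summed RPKM of the 49 genes was 274 in the control library and 255 in the mutant library. By the counting interval of the fold, 5 genes lay above 1 (Tgfb3, Bmper, Bambi, Chrdl1 and Fstl3) and 10 below (Inhba, Tgfbr1, Acvrl1, Bmpr1a, Tgfbr3, Smad7, Grem1, Twsg1, Fstl1 and Ltbp1). These are 14.7% and 29.4% of the genes compared, beside 7.84% and 15.9% of all genes. The median gene of the group had 121 reads in the control, where the median over all genes compared was 57, and more reads give narrower intervals. Set against the median fold of all genes, 0.960, in place of 1, the counts were 6 above and 7 below, beside 11.6% and 11.7% of all genes; Inhba, Bmpr1a and Twsg1 no longer lay below, and Smad5 lay above. Among the genes at 1 RPKM or more in both libraries, Tgfb3 alone lay above 1 (3.70%, beside 7.16% of all such genes) and 8 lay below (29.6%, beside 14.7%).

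**Figure D1:**
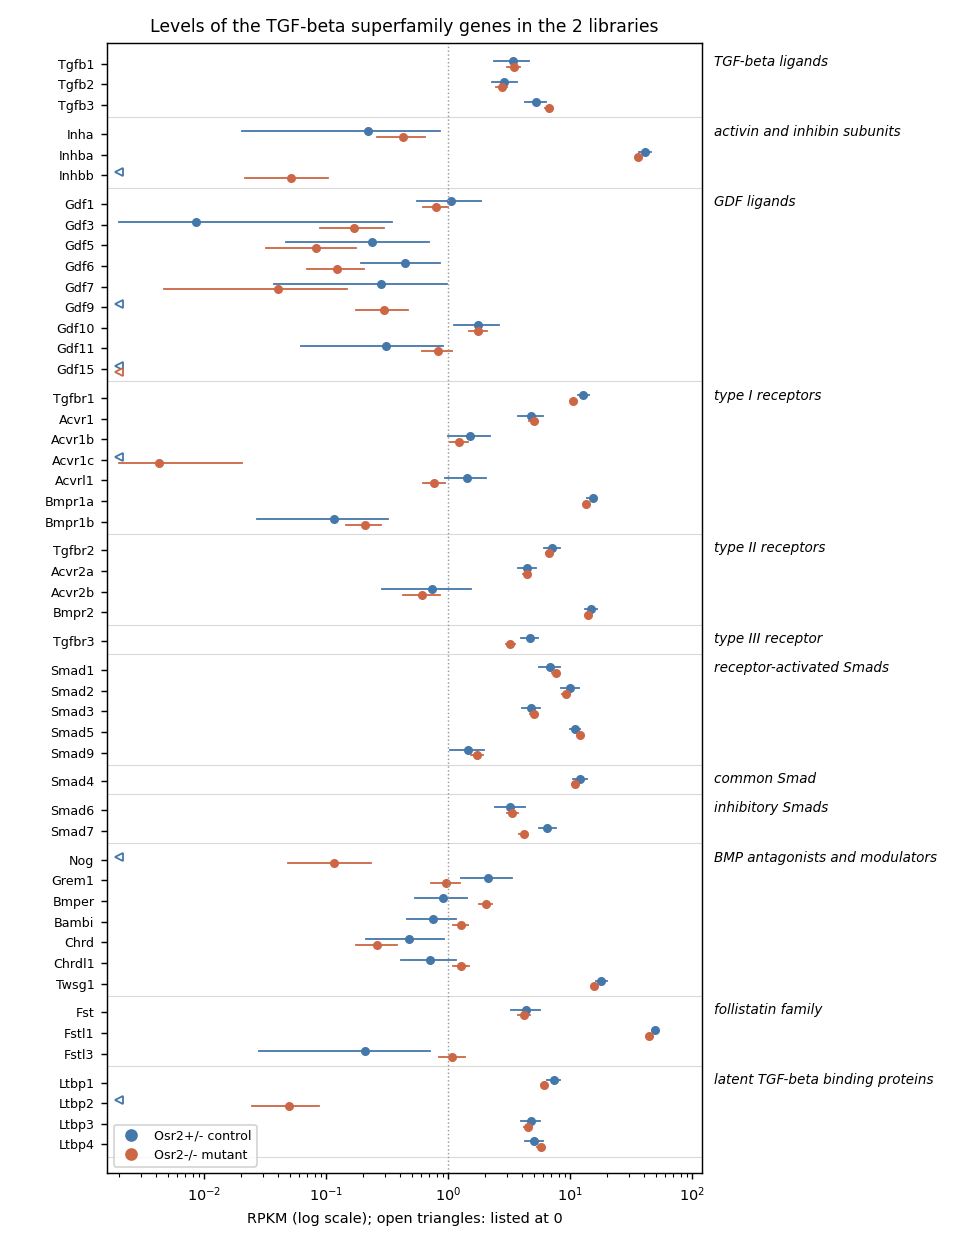
RPKM of each of the 49 genes on a log scale in the control and mutant libraries (1 library each), grouped by role; open triangles mark genes listed at 0. Fstl1 and Inhba stand highest in both libraries, and 15 genes stayed under 1 RPKM in both.

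Among the ligands, the activin subunit gene Inhba was by far the strongest. Inhba, which encodes the beta A subunit of activin A (mm9 chr13:16106308-16119044), had 40.7 RPKM in the control library and 36.1 in the mutant, at the 96.4 and 96.0 percentiles of all genes compared. The mutant library was thus slightly lower, 0.887-fold (0.789 to 0.999), and the upper bound touches equality. Inha, the inhibin alpha subunit, was at 0.218 and 0.421, and Inhbb, the beta B subunit, was listed at 0 in the control and at 0.0513 in the mutant. Neither passed the filter, so Inhba was the only activin subunit with an appreciable level in either library.

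All 3 TGF-beta genes passed in both libraries. Tgfb3, a TGF-beta of craniofacial mesenchyme and epithelium (chr12:87397693-87419991), had 5.21 RPKM in the control and 6.67 in the mutant, 1.28-fold higher (1.03 to 1.60), and was the most abundant of the 3 in both libraries. Tgfb1 had 3.36 and 3.43 RPKM, a fold of 1.02 (0.721 to 1.47). Tgfb2 had 2.88 and 2.73 RPKM, a fold of 0.948 (0.739 to 1.23). The order Tgfb3, Tgfb1, Tgfb2 was the same in both libraries, and the level of Tgfb3 relative to Tgfb2 was 1.81 in the control library and 2.44 in the mutant library. The interval of Tgfb1 holds 1 and is wide enough for a fold of the size seen in Tgfb3.

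The 9 GDF genes were low throughout. Gdf10, a relative of BMP3, was the highest, with 1.75 RPKM in both libraries and a fold of 1 (0.647 to 1.62). Gdf1, a nodal partner of the early embryo, had 1.06 and 0.789 RPKM; its longer annotated transcript is shared with the ceramide synthase gene Cers1, so its level cannot be assigned to Gdf1 alone. Gdf11, an activin-like ligand of axial patterning, was at 0.306 and 0.818, a fold of 2.67 (0.862 to 13.5) that rests on about 3 reads in the control. The joint-patterning genes Gdf5, Gdf6 and Gdf7 all had their higher value in the control library, from 0.235 to 0.440 there and from 0.0405 to 0.123 in the mutant. Of these, Gdf6 alone had an interval that left out 1, 3.57-fold lower in the mutant (1.33 to 8.86), on about 8 and 15 reads and under the filter in both libraries. Gdf3 was at 0.00856 and 0.170, Gdf9, an oocyte ligand, was listed at 0 in the control and at 0.295 in the mutant, and Gdf15 was listed at 0 in both.

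Most receptors had somewhat more RNA in the control library, as did most genes: of 9 receptor genes compared, 8 had their higher value there (7 on a TPM scale or centred on the median gene, where Acvr2a was higher in the mutant) and 4 had intervals below 1, while none lay above. Over all genes compared, 5623 of 9779 had the higher value in the control and 15.9% had intervals below 1. None was 1.5-fold apart on the RPKM + 1 scale. Summed receptor RPKM was 67.4 against 60.3 in the mutant, a ratio of 0.896, beside 0.969 for all genes. Among type I receptors, which carry the specificity for Smads, Bmpr1a, the main BMP type I receptor (chr14:35224254-35315732), was highest with 15.2 and 13.5 RPKM, a fold of 0.893 (0.807 to 0.990). Tgfbr1, the TGF-beta type I receptor ALK5 (chr4:47366177-47427796), had 12.8 RPKM in the control and 10.6 in the mutant, 0.825-fold (0.740 to 0.922). Both were lower in the mutant library; against the median fold of all genes, Tgfbr1 still lay below and Bmpr1a did not.

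Acvrl1, the ALK1 receptor known mainly from endothelial cells (chr15:100958968-100975767), had 1.42 RPKM in the control and 0.763 in the mutant, 1.85-fold lower (1.17 to 2.86). It passed the filter through the control alone. The 6 endothelial markers compared also had lower values in the mutant library, but the intervals of 4 held 1 (Pecam1, Cdh5, Kdr and Tek): Pecam1 4.53 and 3.91, Cdh5 10.5 and 9.62, Kdr 3.55 and 3.19, Tek 2.25 and 1.76, Tie1 1.37 and 0.861, and Emcn 5.53 and 2.54 RPKM. Tie1, like Acvrl1, passed the filter through the control alone, so its lower value in the mutant was built in. Over all genes compared, 5623 of 9779 had the higher value in the control. Eng, the endothelial co-receptor that partners Acvrl1, had 2.32 and 2.35, a fold of 1.01 (0.733 to 1.44). The part of these markers in the Acvrl1 difference was not tested. Acvr1, the type I receptor ALK2, had 4.73 and 5.01 RPKM, the only receptor compared with its higher value in the mutant, with a fold of 1.06 (0.827 to 1.38). Acvr1b, the activin type I receptor ALK4, had 1.51 and 1.23 RPKM, a fold of 0.816 (0.536 to 1.29). Acvr1c, grouped here with the TGF-beta and activin branch, was listed at 0 and at 0.00427 and did not pass. Bmpr1b, at 0.116 and 0.206, did not pass either. Bmpr1a and Acvr1 thus made up most of the summed BMP type I receptor level of 21.4 and 19.5 RPKM, with Acvrl1 at 1.42 and 0.763.

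The type II receptors were nearly equal in the 2 libraries. Bmpr2, the BMP type II receptor, had 14.7 and 14 RPKM, a fold of 0.953 (0.839 to 1.09). Tgfbr2, the TGF-beta type II receptor (chr9:115996813-116084481), had 7.08 and 6.71, a fold of 0.948 (0.811 to 1.12). Acvr2a, an activin type II receptor, had 4.41 and 4.40, a fold of 0.998 (0.831 to 1.21), and Acvr2b was under the filter at 0.734 and 0.611. No type II interval left out 1. The co-receptor stood apart from them: Tgfbr3, or betaglycan, which presents TGF-beta2 to the receptor pair and binds inhibin (chr5:107535589-107718614), had 4.66 RPKM in the control and 3.23 in the mutant, 1.44-fold lower (1.20 to 1.72).

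**Figure D2:**
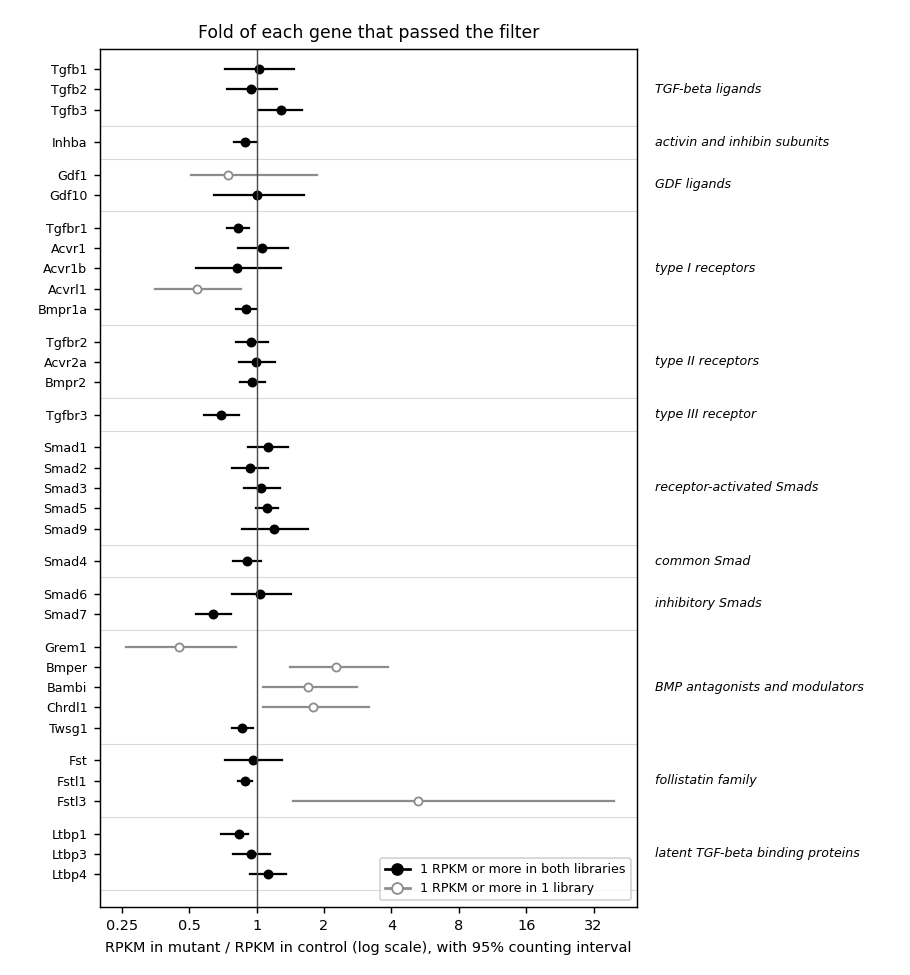
Fold of RPKM, mutant over control, on a log scale for each gene that passed the filter, with its 95% counting interval (counting error only, 1 library per genotype). Smads other than Smad7 sit near 1, and Grem1 and Fstl3 mark the ends of the range at 0.451 and 5.25.

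All 8 Smad genes passed in both libraries, and 7 had intervals that held 1. The R-Smads of the BMP branch had their higher value in the mutant library, except that Smad5 was lower there when its highest transcript stood for the gene. Smad5 had 11.0 and 12.1 RPKM, a fold of 1.11 (0.996 to 1.24), Smad1 had 6.76 and 7.58, a fold of 1.12 (0.918 to 1.38), and Smad9 had 1.44 and 1.72, a fold of 1.19 (0.861 to 1.69). Of the R-Smads of the TGF-beta and activin branch, Smad2 had 9.95 and 9.25 RPKM, a fold of 0.930 (0.774 to 1.12), and Smad3 had 4.79 and 5.03, a fold of 1.05 (0.874 to 1.27). The intervals of these 5 genes hold 1, though that of Smad5 lies above the median fold of all genes, 0.960. Smad4, the partner of both branches, had 12.1 and 10.9 RPKM, a fold of 0.903 (0.781 to 1.05).

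The inhibitory Smads differed from each other in direction. Smad7, which blocks TGF-beta and BMP receptors and is itself a transcriptional target of both pathways (chr18:75527019-75555588), had 6.48 RPKM in the control and 4.14 in the mutant, 1.56-fold lower (1.30 to 1.87), on about 155 and 631 reads. Its log2 ratio of RPKM + 1 was -0.54, so it just missed the 1.5-fold rule on that scale and passed it with a pseudocount of 0.5 or 0.1. Smad6, which acts mainly on BMP receptors, had 3.21 and 3.34 RPKM, a fold of 1.04 (0.774 to 1.42). The intervals of Smad7 and Smad6 do not overlap. Of the genes at 1 RPKM or more in both libraries, Smad7 had the log2 ratio farthest from 0.

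The BMP antagonists and modulators differed in both directions, by more than 1.5-fold only in genes at low levels. Grem1, which encodes gremlin 1, a secreted BMP antagonist (chr2:113588832-113598805), had 2.12 RPKM in the control and 0.957 in the mutant, 2.22-fold lower (1.24 to 3.81), on about 19 and 54 reads. Bmper, a chordin-like secreted protein that can block or promote BMP action (chr9:23027520-23289646), had 0.902 RPKM in the control and 2.04 in the mutant, 2.26-fold higher (1.41 to 3.85), on about 18 and 266 reads. Grem1 was the stronger of these in the control and Bmper in the mutant: the level of Bmper relative to Grem1 was 0.425 in the control library and 2.13 in the mutant library. With fewer than 20 control reads for each gene, the control side sets the width of both intervals.

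Bambi and Chrdl1 also had intervals above 1, and both passed through the mutant library alone. Bambi, a kinase-less decoy receptor for BMPs and TGF-betas, had 0.746 and 1.26 RPKM, 1.69-fold higher (1.07 to 2.81). Chrdl1, a chordin-like BMP antagonist (chrX:139720217-139828805), had 0.712 and 1.28 RPKM, 1.79-fold higher (1.07 to 3.18). Chrdl1 is X-linked, and the pools differed in sex-linked genes: Xist, the RNA of the inactive X chromosome, had 5.21 RPKM in the control and 30.0 in the mutant, and the Y-linked Ddx3y had 3.28 RPKM in the control and was listed at 0 in the mutant. The part of embryo sex in the Chrdl1 difference, or in any other difference given here, was not tested.

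Twsg1, a chordin partner that modulates BMP release, was the only abundant gene of this class, with 18.0 RPKM in the control and 15.5 in the mutant, a fold of 0.862 (0.773 to 0.962). Chrd, which encodes chordin, was at 0.480 and 0.262, and Nog, which encodes noggin, was listed at 0 in the control and at 0.115 in the mutant on about 8 reads. The classical antagonists chordin and noggin were thus under the filter in both libraries. Summed RPKM of the class was 23.0 and 21.4, most of it Twsg1.

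In the follistatin family, Fstl1 was the most abundant of all 49 genes. Fstl1, a secreted glycoprotein of mesenchyme that binds BMPs and type I receptors (chr16:37777141-37836602), had 49.5 RPKM in the control and 43.8 in the mutant, a fold of 0.886 (0.827 to 0.949). Fst, the activin-binding follistatin, had 4.34 and 4.16 RPKM, a fold of 0.960 (0.719 to 1.30). Inhba therefore stood 9.40 times as high as Fst in the control and 8.69 times in the mutant. Fstl3, another activin-binding follistatin (chr10:79240019-79245375), had 0.206 RPKM in the control and 1.08 in the mutant, 5.25-fold higher (1.46 to 39.3), but the control value rests on about 2 reads. The locus of Fstl3 overlaps that of Prss57, listed at 0.196 RPKM in the control and near 0 in the mutant, and the sources used here do not state that reads were counted by strand. The loci of Acvr2a, Ltbp3, Gdf1, Chrd and Ltbp2 also overlap other genes, so reads could be shared there too.

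The latent TGF-beta binding proteins had modest differences at the level of whole genes. Ltbp1 had 7.29 RPKM in the control and 6.07 in the mutant, a fold of 0.832 (0.696 to 0.915). Ltbp4 had 5.08 and 5.72 RPKM, a fold of 1.13 (0.938 to 1.35), and Ltbp3 had 4.74 and 4.49, a fold of 0.946 (0.786 to 1.15). Ltbp2 was listed at 0 in the control and at 0.0490 in the mutant. Of the 4 genes, Ltbp1 alone had an interval below 1. For genes with several transcripts the interval is made from summed reads, which weight long transcripts more than summed RPKM does.

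**Figure D3:**
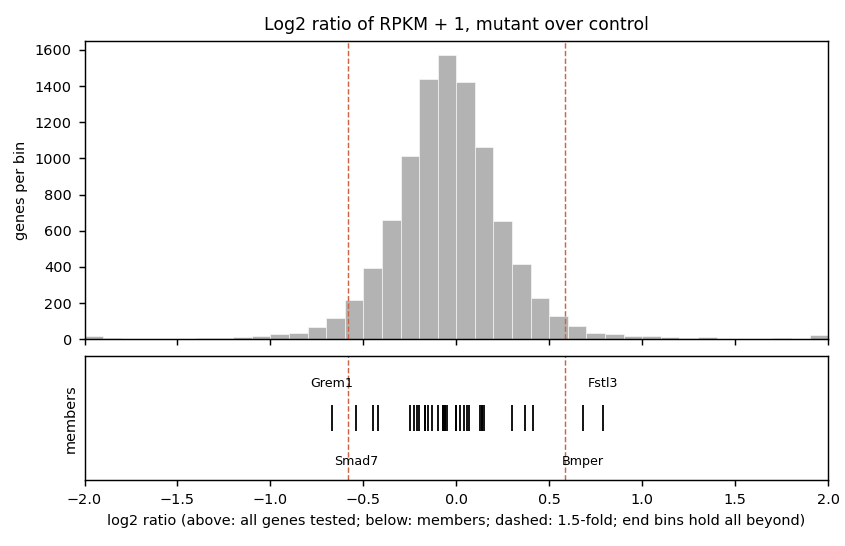
Log2 ratio of RPKM + 1, mutant over control, as a histogram of all 9779 genes compared (above) and as a mark for each of the 34 genes of the superfamily that passed (below); dashed lines mark 1.5-fold. The medians are -0.06 for the superfamily genes and -0.05 for all genes, and Grem1, Bmper and Fstl3 lie outside the dashed lines.

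At both high and low abundance the split was near that of all genes. Of the 17 genes at 5 RPKM or more in at least 1 library, 11 had their higher value in the control and 6 in the mutant, with a median log2 ratio of -0.10 beside -0.05 for all genes at that level, of which 58.7% had the higher value in the control. Of the 17 genes compared that stayed under 5 RPKM in both, 8 were higher in the mutant, beside 43.3% of all such genes, with a median of -0.00 beside -0.04. The 8 genes at 10 RPKM or more in both libraries were Inhba, Tgfbr1, Bmpr1a, Bmpr2, Smad5, Smad4, Twsg1 and Fstl1, and of these Smad5 alone had the higher summed value in the mutant.

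The tables list 59 transcripts for the 49 genes, and 8 genes have more than 1. The split between transcripts of a gene is an estimate of the authors' software and carries no interval here. Ltbp1 is shown first because its transcripts start far apart. The long Ltbp1 transcript (6712 bases, mm9 chr17:75404869-75791109) had 6.10 RPKM in the control and 3.70 in the mutant, 83.6% and 61.0% of the gene. The short transcript (5501 bases, from 75578222) had 1.19 and 2.36 RPKM, 16.4% and 39.0% of the gene, 1.98-fold higher. The long form was thus lower and the short form higher in the mutant library, while their sum differed by less. The long and short proteins are known to differ at the N terminus, which takes part in matrix binding.

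The Ltbp1 start sites lie 173353 bases apart in mm9 and 173252 in GRCm38, so the transcripts have separate promoters. The 250 bases before each start are printed because the transcript levels differ in opposite directions; they come from RefSeq on GRCm38.p6, plus strand, at chr17:75005279-75005528 for the long form and chr17:75178531-75178780 for the short form. Capitals mark GTCTG, the reverse complement of CAGAC, the core letters bound by Smad3 and Smad4.
Ltbp1 long form: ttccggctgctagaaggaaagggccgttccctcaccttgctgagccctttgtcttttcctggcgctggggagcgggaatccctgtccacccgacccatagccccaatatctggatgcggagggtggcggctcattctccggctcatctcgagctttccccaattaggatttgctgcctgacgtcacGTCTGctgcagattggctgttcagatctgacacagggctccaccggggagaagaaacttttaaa
Ltbp1 short form: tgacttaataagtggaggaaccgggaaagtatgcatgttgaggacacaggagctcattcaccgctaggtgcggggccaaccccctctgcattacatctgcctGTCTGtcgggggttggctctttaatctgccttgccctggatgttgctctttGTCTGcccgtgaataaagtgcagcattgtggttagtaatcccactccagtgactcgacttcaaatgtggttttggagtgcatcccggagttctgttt
The long-form window held 1 match, 64 bases before the start, and the short-form window held 2, at 148 and 97 bases before it. Searched on both strands, CAGAC occurred in 42.2% of 32851 RefSeq promoters of this length and in 45.7% of the 46 promoters found for 35 of the 49 genes, so a match is common. The matches are letters in a window and not measured binding. GC content was 56.8% in the long-form window and 50.8% in the short-form window.

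Tgfbr2 showed a split of the same kind, while the fold of its sum held 1 in its interval. Its transcripts differ by the 75 bases of exon 2, which are 25 codons of the extracellular part of the receptor. The form with the exon (4788 bases) had 1.05 RPKM in the control and 2.14 in the mutant, 14.9% and 31.9% of the gene, and the form without it (4713 bases) had 6.02 and 4.57. The exon, which carries the whole distinction, is at chr9:116158271-116158345 on the minus strand of GRCm38, from GENCODE vM21, with no letters singled out by capitals.
Tgfbr2 exon 2: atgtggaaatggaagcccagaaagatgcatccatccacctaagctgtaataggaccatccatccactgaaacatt
At the estimated levels, this stretch would hold about 0.676 control reads and 8.76 mutant reads, so the control share of the longer form rests on less than 1 read over the exon itself.

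Smad5, Ltbp4 and Acvr1 also had several transcripts with measurable levels. For Smad5, a 6585-base transcript had 11.0 RPKM in the control and 7.67 in the mutant, and a 6608-base transcript had 0.00645 and 4.30, 35.5% of the gene in the mutant. These Smad5 forms differ by few bases in total length, though they start at different mm9 positions of chr13, 56804371 and 56805029. The estimate placed nearly all of the control level, 99.9%, on 1 form. For Ltbp4, the 5102-base form had 3.71 and 4.85 RPKM and the 5301-base form 1.37 and 0.866, again opposite in direction. For Acvr1 the main form made up 89.7% and 87.0% of the gene. Using the highest transcript of each gene in place of the sum changed the log2 ratio of Smad5 from 0.13 to -0.46, of Tgfbr2 from -0.07 to -0.33 and of Ltbp1 from -0.23 to -0.59, so the sign for Smad5 depends on how transcripts are summed.

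**Figure D4:**
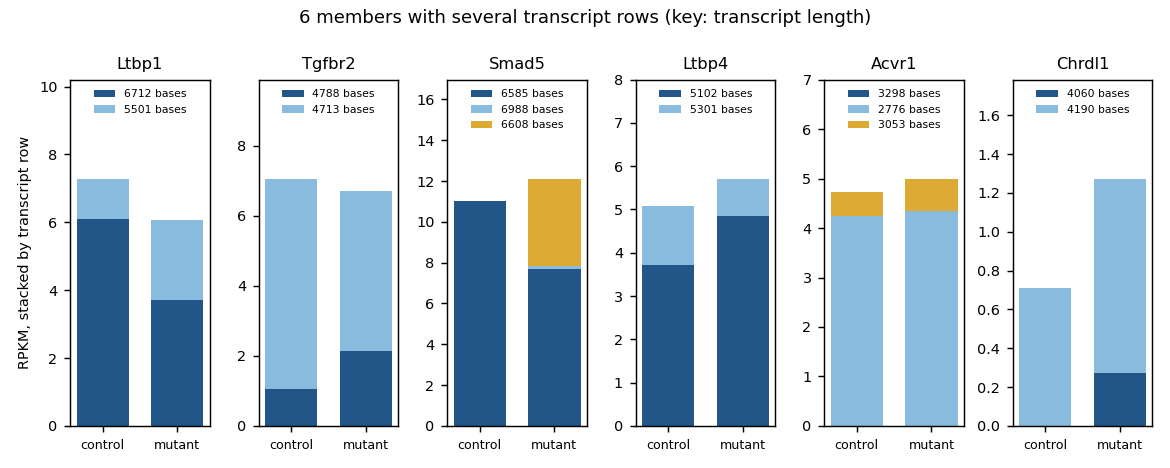
RPKM in the control and mutant libraries (1 each) for 6 genes with several transcripts, stacked by transcript, with transcript lengths in the key. The short Ltbp1 form and the longer Tgfbr2 form take a larger share in the mutant library, while the totals of these genes differ by less.

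Other genes of the pathway put these levels in context. The counts per list stand beside 2.55% of all genes compared at least 1.5-fold higher and 3.57% lower. The TGF-beta response list shares Smad7 and Ltbp2 with the 49 genes, the BMP response list shares Smad6, Smad7, Bambi, Nog and Grem1, and the remaining lists share none. The BMP ligands had 6 of 11 genes compared, of which 2 exceeded the control by 1.5-fold and none was that much lower, with a median log2 ratio of 0.18. Bmp2 had 2.19 RPKM in the control and 5.14 in the mutant, 2.35-fold higher (1.62 to 3.53), and Bmp3 had 2.14 and 4.25, 1.98-fold higher (1.41 to 2.87). Bmp7 had 1.05 and 1.49 and Bmp1, a procollagen proteinase rather than a ligand, 4.82 and 4.21, both with intervals that hold 1. Bmp4, the most abundant of the list, had 10.4 and 11.0 RPKM, a fold of 1.07 (0.872 to 1.31). Bmp6 had 5.56 and 5.17 RPKM, a fold of 0.929 (0.723 to 1.21). Bmp2 and Bmp3 were thus the only ligands of this list with intervals above 1. The 6 genes compared and their median include Bmp1. None of 8 other family ligands passed the filter.

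Of 6 co-receptors, 3 passed, with a median of -0.37. The BMP co-receptor Rgma had 3.53 RPKM in the control and 2 in the mutant, 1.76-fold lower (1.33 to 2.32), and Rgmb had 4.25 and 3.06, 1.39-fold lower (1.03 to 1.84). The interval of the remaining gene, Eng, held 1. Rgma and Rgmb thus lay on the same side as betaglycan. Of 17 other extracellular antagonists, 7 passed, with 3 at least 1.5-fold lower in the mutant, none that much higher, and a median of -0.37. They were Nbl1, a DAN family BMP antagonist, at 5.95 and 2.66 RPKM, and the matrix proteoglycans Dcn at 34.7 and 19.9 and Bgn at 34.7 and 22.1, which bind TGF-beta. Bgn, like Chrdl1, is X-linked. Sostdc1, the most abundant of the 7, had 55.6 and 43.3 RPKM, a fold of 0.778 (0.708 to 0.857). Tsku had 3.43 and 4.87, 1.42-fold higher (1.04 to 1.94).

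Of 19 genes of latency, activation and processing, 14 passed, with 1 at least 1.5-fold higher, 1 lower and a median of -0.15. Mmp9, a protease of matrix-resorbing cells that can release TGF-beta, had 0.502 RPKM in the control and 4.66 in the mutant, 9.27-fold higher (4.75 to 21.0), and passed through the mutant alone. Tll1, a tolloid-like proteinase that cleaves chordin, had 2.04 and 1.02, 2-fold lower (1.45 to 2.73). The matrix fibrillin Fbn2 had 27.6 and 21.1 RPKM and the TGF-beta activator Thbs1 had 2.90 and 3.94. All 18 intracellular modulators passed, none was 1.5-fold apart, and their median was -0.04. Of these, Nedd4l, a ubiquitin ligase for Smads, had 1.37 and 1.92 RPKM, Zfyve9, the Smad anchor, 1.93 and 1.21, Traf6 2.67 and 2.14, and Fkbp1a, which keeps type I receptors inactive, 82.4 and 91.0.

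Known target genes stood on both sides. Of 22 TGF-beta response genes, 16 passed, 2 of them at least 1.5-fold higher and 2 lower in the mutant, with a median of 0.03. By the counting intervals, 6 lay below 1 (37.5%, beside 15.9% of all genes) and 3 above (18.8%, beside 7.84%); those below were Smad7, Pmepa1, Acta2, Fn1, Postn and Lox. Among the 14 that passed in both libraries, none was 1.5-fold higher, 2 were lower, 1 interval lay above 1 and 6 below, and the median was -0.01. Lox, a collagen crosslinking enzyme, had 7.10 RPKM in the control and 3.18 in the mutant, and the matrix protein gene Postn 226 and 149, while Bhlhe40 had 0.767 and 2.30 and the cell cycle inhibitor gene Cdkn1a 0.492 and 1.67; Bhlhe40 and Cdkn1a passed through the mutant library alone, so they had to differ. Of 14 BMP response genes, 11 passed, with a median of 0.04. Of these, 1 was at least 1.5-fold higher (9.09%, beside 2.55% of all genes) and 2 were lower (18.2%, beside 3.57%). Hey1 had 3.21 and 6.99 RPKM, 2.18-fold higher (1.57 to 3.11), and Id4 had 3.71 and 1.51, 2.45-fold lower (1.59 to 3.70). Both of these passed in both libraries, while Grem1, the other lower gene, passed through the control alone. The intervals of Id1 (1.87 and 3.06 RPKM), Id2 (11.2 and 11.7), Id3 (14.9 and 15.6) and Msx1 (40.0 and 36.8) held 1.

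**Figure D5:**
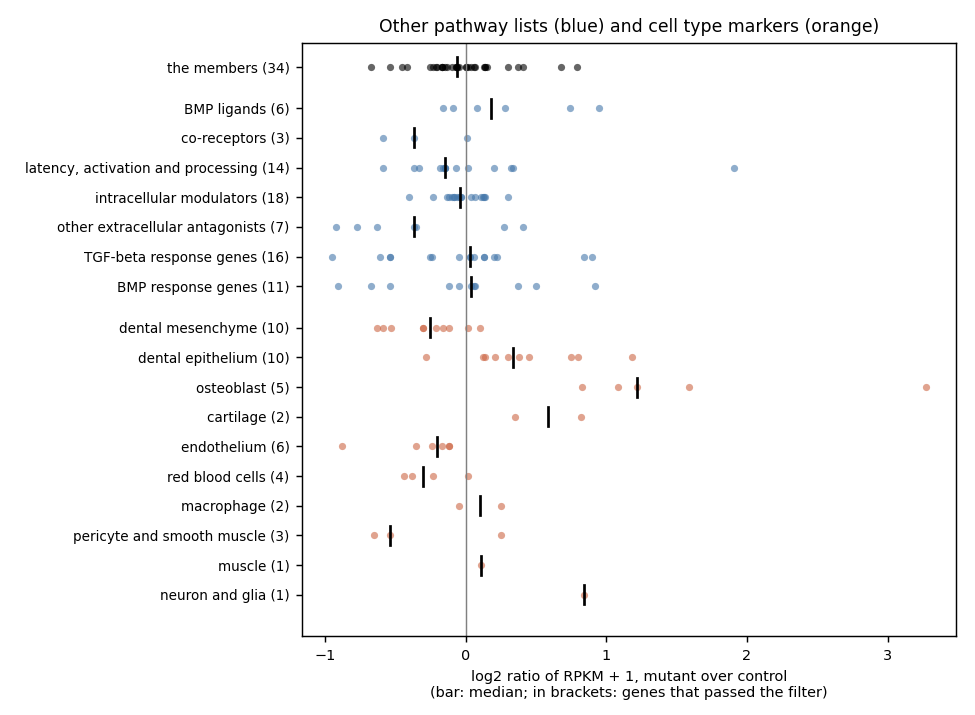
Log2 ratio of RPKM + 1, mutant over control, for the genes of the other pathway lists (blue) and the cell type marker lists (orange) that passed the filter; bars mark medians. The osteoblast list has the highest median among the marker lists at 1.22 (3 of its 5 genes passed through the mutant alone), and the BMP ligand list has a median of 0.18.

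Markers of cell types differed between the libraries, so they are given beside these results. All 10 dental mesenchyme markers were detected, with summed RPKM of 486 against 394 in the mutant and a median log2 ratio of -0.25. Of these, 7 (70.0%) had intervals below 1, beside 14.7% of all genes at 1 RPKM or more in both libraries. The other 3 had intervals that held 1. Control reads ran from about 100 for Dlx1 to 3894 for Prrx1, beside a median of 57 over all genes compared. More reads give narrower intervals. Pax9, at 61.7 and 39.4 RPKM, had the lowest ratio, while Dlx2 and Twist1 had their higher value in the mutant. Of 12 dental epithelium markers measured, 10 passed, their sum was 39.8 and 54.8 and the median 0.34, with Krt14 at 5.80 and 8.28. Of 7 osteoblast markers, Runx2, at 13.4 and 24.7 RPKM, and Alpl, at 2.22 and 6.51, passed in both libraries and were higher in the mutant. Sp7, Ibsp and Ifitm5 passed through the mutant alone and so had to be higher there; the summed list was 16.7 and 49.5, with Sp7 at 0.607 and 3.84 and Ibsp at 0.459 and 13.0; 3 of the 7 in that list, Bglap and Spp1 among them, were listed at 0 in the control. Summed endothelial markers were 27.7 and 21.9. The part of these shifts in the Grem1, Bmper, Bambi, Smad7 and Tgfbr3 differences was not tested.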

How the data were processed

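The submitters' processing notes name TopHat 1.4.1 and Bowtie 0.12.7 with build mm9; for Cufflinks the version was not given in the sources used here. Values are RPKM as deposited by the authors, per the file headers, for 28107 transcripts in each of 2 libraries. The deposited coverage (signal), unscaled for library size, gave approximate reads as coverage times length divided by 44.3 bases, a step estimated from the data because no read length is given. After 54 transcripts without a usable estimate were left out (none of these genes), RPKM was summed per gene. Ratios are log2 of RPKM + 1. The 95% intervals of the fold are exact binomial (Clopper-Pearson). They were tested on simulated counts drawn from the counting model that they assume. That test covers neither the estimated 44.3-base step nor variation beyond counting error. With 1 library per genotype no test was run, nor could any replicate be left out. Coordinates are counted from 1.

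Genes are named with values at 5 RPKM or more, at 1.5-fold apart or with an interval that leaves out 1. Of each other pathway list, up to 4 are named by size of log2 ratio. Further genes of those lists, Bmp4, Bmp6, Sostdc1, Id1, Id2, Id3 and Msx1 among them, are named outside that rule. Members and lists were chosen with earlier results of these data known. Pseudocounts, filters, a TPM scale, centring, the highest transcript and a 2-fold threshold were tried as alternatives. Python 3.11.15, numpy 2.4.6, pandas 2.3.3, scipy 1.17.1 and matplotlib 3.10.9 were used. Marker lists also covered cartilage (summed RPKM 8.47 in the control and 13.6 in the mutant), red blood cells (717 and 546), macrophages (5.91 and 5.17), pericytes and smooth muscle (21.4 and 18.1), muscle (1.31 and 2.03) and neurons and glia (2.20 and 4.92).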

Additional observations from a re-analysis of the deposited data

How the results depend on the processing

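The median log2 ratio of the genes stayed between -0.10 and -0.00 under every alternative run. The count at least 1.5-fold higher in the mutant was 2 of 34 genes as reported (2.55% of all genes). It was 4 of 34 with a pseudocount of 0.1 (5.69% of all genes) and 9 of 45 on a TPM scale (12.1%). With a filter on the mean of both libraries it was 1 of 31 (2.05%). It was 0 of 17 among genes at 5 RPKM (1.74%) and 0 of 34 at a 2-fold threshold (0.890%). The count at least 1.5-fold lower was 1 of 34 genes as reported (3.57% of all genes). It was 3 of 34 with a pseudocount of 0.1 (8.51%) or 0.5 (5.74%) and 7 of 45 on a TPM scale (11.6%). With the highest transcript only it was 2 of 33 (7.10%). It was 0 of 17 among genes at 5 RPKM (2.74%) and 0 of 34 at a 2-fold threshold (0.798%). The TPM scale multiplied values by 9.06 (control) and 9.35 (mutant), so 45 of the 49 genes passed the filter. Counting intervals set against the median fold were chosen after seeing the data. Among list medians, 25 values moved by over 0.1 and 124 did not, and 7 changed sign, over 5 lists: activin and inhibin subunits from -0.17 to 0.07 (no filter) and 0.30 (TPM), BMP antagonists and modulators from 0.37 to -0.20 (5 RPKM, where Twsg1 alone passed), latency, activation and processing from -0.15 to 0.02 (no filter, TPM), intracellular modulators from -0.04 to 0.01 (centred) and TGF-beta response genes from 0.03 to -0.05 (5 RPKM). For single genes the sign turned for Smad5 and Gdf1 with the highest transcript (-0.46 and 0.15) and for Acvr2a on the TPM scale and centred (0.04), none of them 1.5-fold apart. No paired analysis was possible because each genotype has 1 library. Depth limits the low genes: the control, with an estimated 5380000 mapped reads, gave about 2 reads for Fstl3 and 19 for Grem1.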
